A study of Mus musculus with 8 samples.

Results

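Gene deserts are the stretches of the genome that lie far from any protein-coding gene, and here they hold the sites of open chromatin more than 50 kb from every protein-coding gene span of mm10 RefSeq. Accessible sites were mapped by ATAC-seq, in which a transposase inserts adapters into open DNA, in 8 libraries of sorted mouse spleen dendritic cells. In each library the 61737 summits (peak maxima) with the best score were kept, and summits of all libraries no more than 250 bp apart were chained into 1 site. A desert site is a site with a summit in at least 2 libraries whose midpoint lies beyond 50 kb. There were 9596 desert sites, 11.3% of the 85076 sites found in at least 2 libraries. Another 27812 of these sites lay outside genes but nearer to one, and 47668 lay inside a gene.

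The libraries came from conventional dendritic cells of type 2 (cDC2, sorted as XCR1- CD11b+) and of type 1 (cDC1, sorted as XCR1+ CD11b-), within lineage-negative CD11c+ MHCII+ CD64- cells. Each subset was taken from mice labelled HDAC1 Mx1-Cre, called KO here, and from mice labelled WT, which carried the floxed Hdac1 alleles without Cre, with 2 libraries for each of the 4 groups. All mice had received PolyI/C and were sorted 2 weeks later. Mx1-Cre is induced by interferon, which PolyI/C elicits, and acts in many tissues, so that deletion was not limited to dendritic cells. The labels do not say that the libraries of a group came from separate animals, so that the p-values below measure the spread between libraries, which may be technical.

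Conventional dendritic cells take up and present antigen to T cells, and the 2 subsets depend on different transcription factors. cDC1 need Irf8, Batf3 and Id2, whereas cDC2 rely more on Irf4, Klf4 and Zeb2. Open chromatin far from genes often marks enhancers, which can act on a promoter over long distances, and enhancers used by a lineage often lie in dense clusters. HDAC1 takes acetyl groups off histones and works in repressor complexes.

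The deposited lists held 69025 and 78296 summits in KO cDC2, 66609 and 61737 in WT cDC2, 74963 and 96031 in KO cDC1 and 76022 and 77585 in WT cDC1. They give no read counts, so sequencing depth is unknown, and the equal list length is what makes the libraries comparable. Each summit within 50 kb of a protein-coding gene span was given to the nearest gene only. Those given to 9 cDC1 marker genes numbered 51 to 58 in cDC2 libraries and 79 to 82 in cDC1 libraries. Xcr1 and Clec9a were given none in any library, although summits near a gene can count for its neighbour. Those given to 8 cDC2 marker genes numbered 59 to 63 in cDC2 libraries and 43 to 49 in cDC1 libraries. Plasmacytoid markers (5 genes) had 32 to 36 in cDC2 libraries and 24 to 30 in cDC1 libraries, and their part in the subset results was not tested. The sums for T cells, 12 to 15 in KO and 7 to 11 in WT libraries, stood apart by genotype, with Cd3g at 0 throughout. Hdac1 was given 1 or 2 summits in every library, which checks nothing on its deletion. A library pools many cells, so that fewer cells with a site open and weaker opening in each cell cannot be told apart, and a site without a called summit is not shown to be closed.

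Some desert sites lay at starts of long noncoding RNAs, and 4 of those windows are printed to show what such a site looks like when it is held by every library or by a single subset. Each runs from 250 bases before to 50 bases after an annotated start, in RefSeq's GRCm38.p6 sequence, 5′ to 3′ on the gene's strand, with the span of the libraries' summits in capitals. BC002059 (chr17:16951286-16951585, plus strand) and 1700064M15Rik (chr12:99627925-99628224, minus strand) were held by all 8 libraries. 2900052N01Rik (chr9:46913353-46913652, plus strand) was held by every cDC2 and no cDC1 library, and Gm39848 (chr2:72775732-72776031, plus strand) by every cDC1 and no cDC2 library.
BC002059: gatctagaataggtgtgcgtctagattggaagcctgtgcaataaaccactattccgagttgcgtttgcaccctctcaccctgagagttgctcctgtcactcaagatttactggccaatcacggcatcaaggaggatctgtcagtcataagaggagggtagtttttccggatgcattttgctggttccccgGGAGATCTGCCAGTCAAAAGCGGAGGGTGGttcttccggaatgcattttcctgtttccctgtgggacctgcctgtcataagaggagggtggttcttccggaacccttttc
1700064M15Rik: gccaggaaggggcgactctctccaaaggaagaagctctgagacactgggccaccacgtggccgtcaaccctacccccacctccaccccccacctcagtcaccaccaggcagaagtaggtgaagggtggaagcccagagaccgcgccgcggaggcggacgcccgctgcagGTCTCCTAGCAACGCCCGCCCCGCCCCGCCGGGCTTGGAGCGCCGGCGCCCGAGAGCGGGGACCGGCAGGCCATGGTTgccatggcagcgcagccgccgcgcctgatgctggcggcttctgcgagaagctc
2900052N01Rik: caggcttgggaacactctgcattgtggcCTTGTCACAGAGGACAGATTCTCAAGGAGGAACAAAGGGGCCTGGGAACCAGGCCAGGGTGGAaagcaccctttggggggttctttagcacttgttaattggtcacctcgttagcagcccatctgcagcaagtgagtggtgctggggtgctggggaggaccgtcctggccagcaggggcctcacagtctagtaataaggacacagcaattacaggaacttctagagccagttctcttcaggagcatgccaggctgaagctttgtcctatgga
Gm39848: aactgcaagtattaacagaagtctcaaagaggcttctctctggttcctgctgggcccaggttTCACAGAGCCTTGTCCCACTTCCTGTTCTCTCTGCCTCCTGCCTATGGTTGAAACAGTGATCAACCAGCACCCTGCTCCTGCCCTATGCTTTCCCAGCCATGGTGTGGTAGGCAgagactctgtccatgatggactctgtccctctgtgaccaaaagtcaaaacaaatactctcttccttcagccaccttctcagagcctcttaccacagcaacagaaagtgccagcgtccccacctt

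The BC002059 window holds the desert site with the best mean rank, 53.6 kb from Gm51425, the nearest protein-coding gene. The ranks of its summit (1 is the best of the 61737 of a list) were 97 and 80 in KO cDC2, 56 and 27 in WT cDC2, 62 and 141 in KO cDC1 and 106 and 376 in WT cDC1. All 8 summits fell within 30 bases, positions 191 to 220 of the window. The 1700064M15Rik window had a mean rank of 2282, 70.7% G and C and 27 CpG dinucleotides, against 50.7% and 9 for BC002059. At 2900052N01Rik the ranks were 33048 and 14371 in KO cDC2 and 34029 and 35501 in WT cDC2, and at Gm39848 they were 17612 and 18682 in KO cDC1 and 14726 and 19445 in WT cDC1. Both single-subset starts ranked behind the 2 shared ones, with 2 and 1 CpG dinucleotides. The printed windows were picked as the best ranked of their pattern, from many more shared than single-subset starts, so they do not compare the patterns. Over all such starts with a desert site the median number of CpG dinucleotides was 8 in 75 windows of all 8 libraries. It was 3 in 5 windows of every cDC2 and no cDC1 library and 5 in 4 windows of the reverse.

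In each library desert sites took a small and steady share of the list. The kept summits in desert sites made up 9.49% and 9.84% of the list in KO cDC2, 9.52% and 9.72% in WT cDC2, 9.98% and 10.19% in KO cDC1 and 10.01% and 10.18% in WT cDC1. Every cDC2 library thus lay below every cDC1 library, whereas KO and WT libraries overlapped. The share averaged 9.64% ± 0.164 in cDC2 and 10.1% ± 0.112 in cDC1 libraries (SD, n = 4 each), a difference of -0.447 percentage points with a two-sided exact permutation p of 0.0286, the smallest that 4 against 4 can give, and of 0.0571 after adjustment over 2 comparisons. The adjusted value misses 0.05, and when desert sites found in only 1 library were counted too the difference was -0.234, with overlapping groups and an adjusted p of 0.686. It was 9.88% ± 0.293 in KO and 9.86% ± 0.294 in WT libraries (exact permutation p = 0.971, n = 4 each). Within cDC2 the means were 9.67% in KO and 9.62% in WT, and within cDC1 both were 10.1%.

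Desert sites were weaker and less widely shared than sites nearer to genes. Their median rank averaged 53.5% ± 1.01 of the list (0 is best), against 44.9% ± 0.721 for other sites outside genes and 47.0% ± 0.628 for sites inside genes (SD, n = 8 libraries). The rank lay deeper in 8 of 8 libraries in both comparisons, by 8.60 and 6.45 percentage points, and for each the two-sided exact sign-flip test over libraries gave p = 0.00781, the smallest it can give, or 0.00852 after adjustment over 12 comparisons. The libraries share most sites, so that this p covers only the spread over libraries. Of a library's desert sites, 41.5% ± 1.25 were found in all 8 libraries, against 54.5% ± 0.747 of its other sites outside genes and 50.9% ± 0.973 of those inside genes. Sites absent from every library of the other subset made up 20.7% ± 2.76 of desert sites, against 12.8% ± 1.28 and 15.0% ± 2.10. For desert sites the values were 17.8% to 18.6% in cDC2 libraries and 22.3% to 24.0% in cDC1 libraries. Both other classes were also higher in every cDC1 than in every cDC2 library. A site of all 8 libraries counts in each of them, so that the libraries' percentages rest on the same sites and are given without a test.

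The lower sharing was also present among strong sites. Only 16.8% ± 1.60 of a library's desert sites were in the best 25% of its list, against 29.8% ± 0.236 of other sites outside genes and 26.5% ± 0.499 of sites inside genes. Of the sites in that best 25%, 84.2% ± 3.92 of desert sites were in all 8 libraries, against 92.6% ± 0.997 and 89.9% ± 1.45 (SD, n = 8 libraries), also without a test. For desert sites the values were 85.7% to 89.2% in cDC2 libraries and 79.3% to 82.7% in cDC1 libraries. Both other classes were also lower in every cDC1 than in every cDC2 library. Strength and sharing move together across sites, and the part of rank in the difference over whole lists was not tested.

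**Figure D1:**
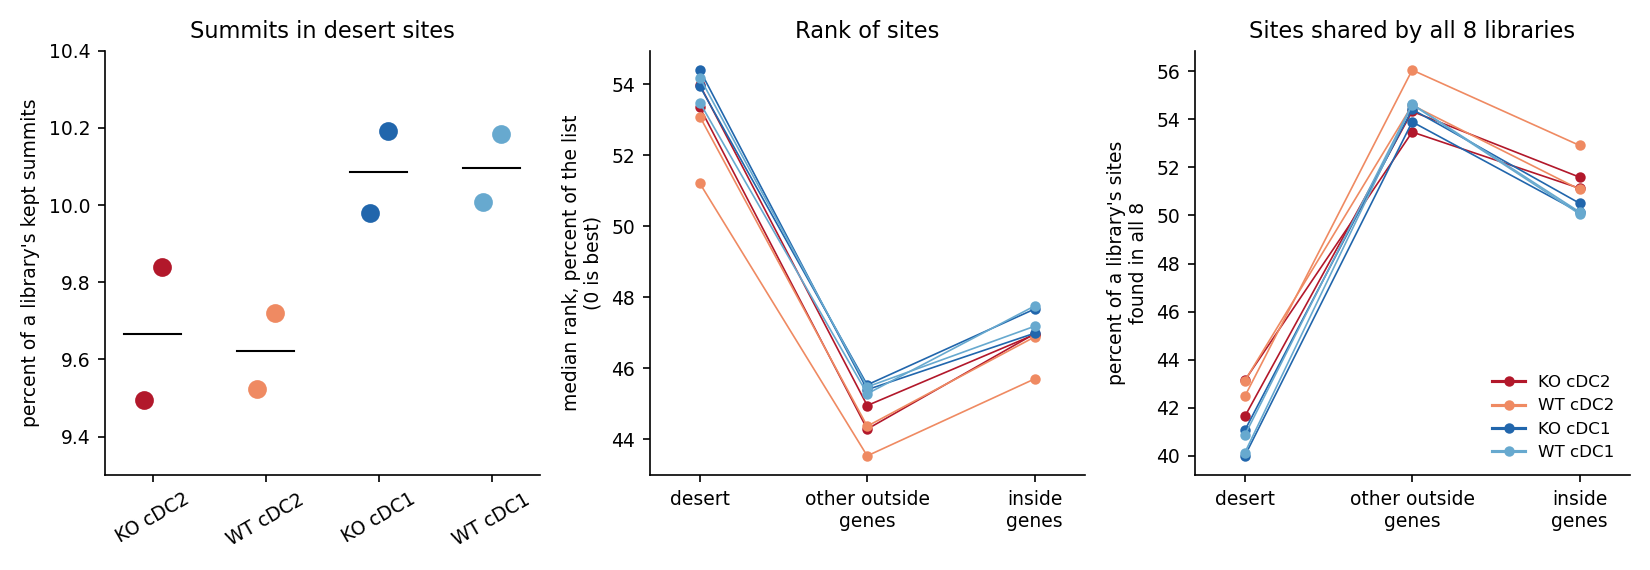
Left, the percent of each library's kept summits that lie in desert sites, with points for libraries and bars for means of 2 (the axis starts at 9.3). Middle and right, the median rank as a percent of the list and the percent of a library's sites found in all 8 libraries, for desert sites, other sites outside genes and sites inside genes, 1 line per library. The cDC2 points lie below the cDC1 points on the left, and in every library desert sites rank deepest and are shared least.

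More desert sites were held by all 8 libraries than by any smaller number of them. There were 2514 desert sites in all 8 libraries, which is 26.2% of them beside 34.8% of all sites in at least 2 libraries. Another 1678 (17.5%) were in exactly 2 libraries, 1320 in 3, 1709 in 4, 842 in 5, 762 in 6 and 771 in 7. A further 3707 desert locations had a summit in 1 library and are no members; they were 27.9% of all desert locations, against 22.2% of locations elsewhere outside genes and 24.8% inside genes. Between the 2 libraries of a group, the desert sites of both divided by those of either (Jaccard index) averaged 0.708 ± 0.0170 (SD, 4 pairs), between genotypes of a subset 0.689 ± 0.00754 (8 pairs) and between subsets 0.479 ± 0.0106 (16 pairs). The drop between subsets was to 0.601 for other sites outside genes and to 0.563 inside genes.

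Sites of a single subset were a larger share of the deserts than of all sites. There were 416 desert sites in every cDC2 and no cDC1 library (4.34%, beside 3.2% of all sites) and 766 in every cDC1 and no cDC2 library (7.98%, beside 5.72%). Counting every degree of sharing, 1514 desert sites (15.8%) had no cDC1 summit and 1882 (19.6%) had no cDC2 summit. These calls depend on the list length: in the full deposited lists 203 of the 416 (48.8%) had a cDC1 summit, and 116 of the 766 (15.1%) had a cDC2 one. The full lists held 74963 to 96031 summits in cDC1 and 61737 to 78296 in cDC2. A cDC1 summit thus had more chance to be found, and the 2 percentages do not compare the subsets. No single site can pass a test over all sites with 4 against 4 libraries, so these are counts.

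**Figure D2:**
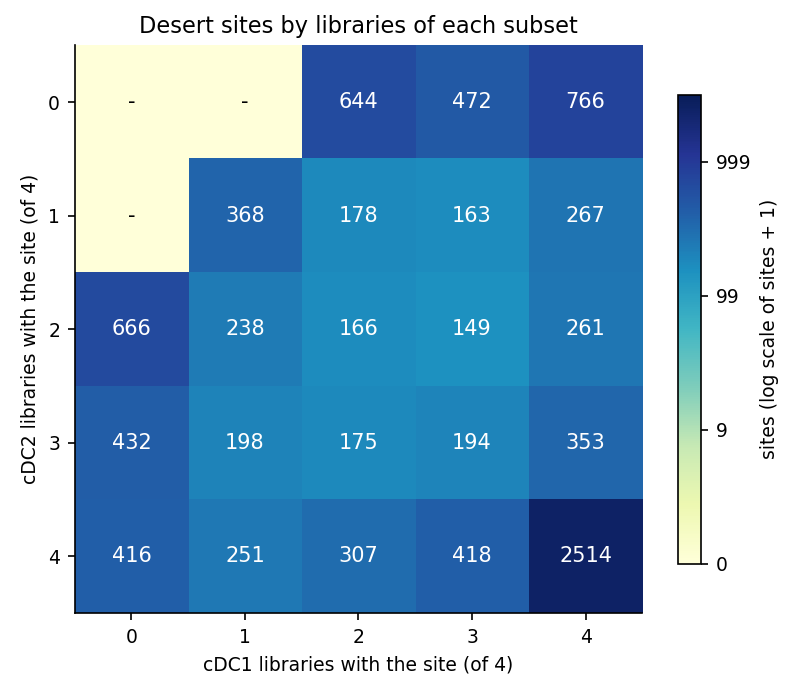
Number of desert sites by the number of cDC2 libraries (vertical axis, 0 to 4) and cDC1 libraries (horizontal axis, 0 to 4) that hold them, coloured on a log scale; dashes mark combinations of fewer than 2 libraries. The corner for all 8 libraries (2514) is the fullest, and the corners for a single subset hold 416 (cDC2) and 766 (cDC1) sites.

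Of the desert sites in every cDC2 and no cDC1 library, the best ranked, chr5:75417132-75417140, lies 158 kb from Kit, the stem cell factor receptor, on the side of Pdgfra; its ranks were 7053 and 11549 in KO cDC2 and 3423 and 2310 in WT cDC2. Next came chr3:131718939-131718961, 75.3 kb from Papss1, a sulfate-activating enzyme, with ranks 4671 and 11489 in KO cDC2 and 8195 and 9580 in WT cDC2. Another lay within the immunoglobulin kappa locus, one 50.2 kb from Tfap2a, and one, chr4:67392692-67392772, stood 546 kb from Tlr4, the receptor for bacterial lipopolysaccharide. The best 10 thus lay beside genes of unlike roles. In the full deposited lists the site by Tlr4 had a summit within 250 bp in 2 cDC1 libraries.

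Among desert sites of every cDC1 and no cDC2 library, chr7:58950494-58950534, 120 kb from the lipid flippase gene Atp10a, ranked 4441 and 5107 in KO cDC1 and 3918 and 5710 in WT cDC1. Behind it stood chr13:90409835-90409883, 295 kb from Tmem167, with ranks 6079 and 4316 in KO cDC1 and 5569 and 6612 in WT cDC1. The others of the best 10 lay 58.7 to 417 kb from Chrm3, Ipo5, Ccdc71l, Fut8, Hs3st1, Gcfc2, Slc8a1 and Plcl1. Their mean ranks, 4794 to 8108, compare with 6084 to 16030 for the 10 best of cDC2.

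The next 2 of the shared sites by rank had no annotated noncoding gene within 10 kb. At chr5:16470033-16470074, 83.4 kb from Hgf (hepatocyte growth factor), the ranks were 190 and 219 in KO cDC2, 100 and 69 in WT cDC2, 223 and 705 in KO cDC1 and 634 and 231 in WT cDC1. At chr1:23256148-23256200, 110 kb from Ogfrl1, they were 134 and 41 in KO cDC2, 149 and 32 in WT cDC2, 811 and 368 in KO cDC1 and 354 and 739 in WT cDC1. All 4 cDC2 libraries placed this site ahead of all 4 cDC1 libraries. Among the others of the best 10, one lay 61.5 kb from Cd83, a surface protein of mature dendritic cells, inside the long noncoding RNA gene Gm33195. Another lay 69.9 kb from Cd47, the signal that restrains phagocytosis, inside the long noncoding RNA gene Gm6936.

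The median desert site lay 112 kb from the nearest protein-coding gene, the middle 50% lay between 72.8 and 198 kb, and the farthest lay 1821 kb away. Distances of 50 to 100 kb held 4229 sites, 100 to 200 kb 3021, 200 to 500 kb 1886, 500 to 1000 kb 381, and greater distances 79. The share found in all 8 libraries was 27.6%, 26.7%, 24.4%, 16.8% and 21.5% in these bins, against 30.3% of sites 10 to 50 kb from a gene and 44.96% of those nearer. The median ranks of sites beyond 200 kb and of those at 50 to 100 kb were 53.9% ± 1.10 and 53.0% ± 1.44 of the list (SD, n = 8 libraries). Over the 8 libraries together no difference was detected (exact sign-flip p = 0.203). The 4 libraries in which sites beyond 200 kb ranked deeper were the cDC2 libraries, such as 55.6% against 52.2% in KO cDC2 replicate 1. In every cDC1 library they ranked slightly better, such as 54.1% against 54.6% in KO cDC1 replicate 1. This split by subset was not tested.

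Sites of every cDC1 and no cDC2 library made up 6.95%, 7.81%, 9.49%, 13.6% and 6.33% of the 5 bins, the last from 5 of 79 sites. Those of every cDC2 and no cDC1 library made up 4.09%, 4.07%, 5.36%, 3.41% and 7.59%. The limit of 50 kb cuts a smooth range: 672 desert sites lay 50 to 55 kb away and 730 non-members 45 to 50 kb. The nearest member, 50006 bp from Arrdc4, was in 4 cDC2 and 3 cDC1 libraries, and the nearest non-member, 49991 bp from Lta4h, in 3 cDC2 libraries and no cDC1 library.

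Even the most remote sites could be open in every library. The farthest, chr5:59987657-59987837 between Pcdh7 and G6pd2, was in 2 cDC2 and 3 cDC1 libraries. Close by, chr5:59996786-59996913, 1812 kb from a gene, was in all 8, with ranks 8470 and 4841 in KO cDC2, 8036 and 9642 in WT cDC2, 21951 and 23061 in KO cDC1 and 38758 and 41240 in WT cDC1. Its rank was better in every cDC2 than in every cDC1 library. Another, chr3:48080787-48080858 between Pabpc4l and the protocadherin gene Pcdh18, 1633 kb from the nearer, ranked 3558 and 2531 in KO cDC2, 7373 and 2852 in WT cDC2, 11729 and 10632 in KO cDC1 and 13902 and 6758 in WT cDC1. Of the 10 farthest sites, 3 were in all 8 libraries.

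Between the first and last protein-coding gene of each chromosome, deserts covered 1006 Mb, 37.4% of that length. All desert sites, with any beyond the outermost genes, came to 9.54 per Mb of it, against 42.6 for the rest outside genes and 46.2 inside genes. Chromosomes 10 and 13 had 18.5 and 16.4 desert sites per desert Mb, X had 2.90 and Y none in 65.2 Mb. Desert sites nonetheless stood close together. Of them 6698 (69.8%) had another desert site within just over 12 kb, beside 73.7% of other sites outside genes and 78.3% of those inside, each counted within its class. The median distance to the next desert site was 5.78 kb. Chaining midpoints within just over 12 kb gave 2059 clusters, of which 322 had at least 5 sites and 40 at least 10, and 2898 single sites.

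The 2 largest clusters had 23 sites. One spans 115 kb between Prdm1, the gene of the repressor Blimp-1, and Prep (chr10:44589460-44704364), 60.9 kb from Prdm1. It held 18 and 17 sites in KO cDC2, 21 and 17 in WT cDC2, 17 and 15 in KO cDC1 and 17 and 16 in WT cDC1, with 11 sites in all 8. The other lies between Haao and Zfp36l2, which encodes a factor that speeds mRNA decay (chr17:84057246-84131920), 52.0 kb from Zfp36l2. It held 18 and 15 sites in KO cDC2, 18 and 18 in WT cDC2, 14 and 14 in KO cDC1 and 14 and 15 in WT cDC1, with 8 in all 8 libraries. Apart from 1 KO cDC2 library, cDC2 libraries held more of its sites than cDC1 libraries.

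The next clusters lay between Eea1 and the antiproliferative gene Btg1 (20 sites), Ado and Zfp365 (19 sites), and Id2 and Rnf144a (18 sites, 59.5 kb from Id2). Those between Arglu1 and Fam155a, Irf2bp2 and Tomm20, Cd83 and Jarid2, Zfp236 and Zfp516, and Zc3h12c and AI593442 had 18 or 17 sites each. In the Id2 cluster 15 and 15 sites were found in KO cDC2, 15 and 13 in WT cDC2, 12 and 13 in KO cDC1 and 15 and 16 in WT cDC1, overlapping ranges around a gene that cDC1 require. Clusters as a rule mixed shared and single-subset sites: of the 322 with at least 5 sites, 292 held a site of all 8 libraries, 2 consisted wholly of sites with more cDC2 libraries and 7 wholly of sites with more cDC1 libraries.

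The most one-sided clusters, picked for that property and so given as values only, had 5 to 10 sites. Between Tlr4 and Brinp1 5 sites were found 4 and 2 times in KO cDC2, 3 and 5 times in WT cDC2 and never among the kept summits of cDC1. In the full deposited lists the site chr4:67392692-67392772 of this cluster had a summit within 250 bp in 2 cDC1 libraries. Between Kit and Kdr, a gene for a receptor of vascular endothelial growth factor, 10 sites over chr5:75825883-75871382 were found 9 and 8 times in KO cDC2, 9 and 6 in WT cDC2, 3 and 4 in KO cDC1 and 2 and 2 in WT cDC1. Of these 10 sites, 9 had more cDC2 than cDC1 libraries and 1 had equal numbers. In the other direction, 9 sites between Commd10 and the semaphorin gene Sema6a were found 0 and 2 times in KO cDC2, never in WT cDC2, 8 and 5 times in KO cDC1 and 9 and 6 in WT cDC1. A cluster of 5 sites between Twistnb and Ferd3l was absent from cDC2 and found 2 and 4 times in KO cDC1 and 5 and 5 times in WT cDC1. A second cluster beyond Id2, 544 kb from it, was found once in KO cDC2, never in WT cDC2, 4 and 3 times in KO cDC1 and 4 and 4 times in WT cDC1.

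**Figure D3:**
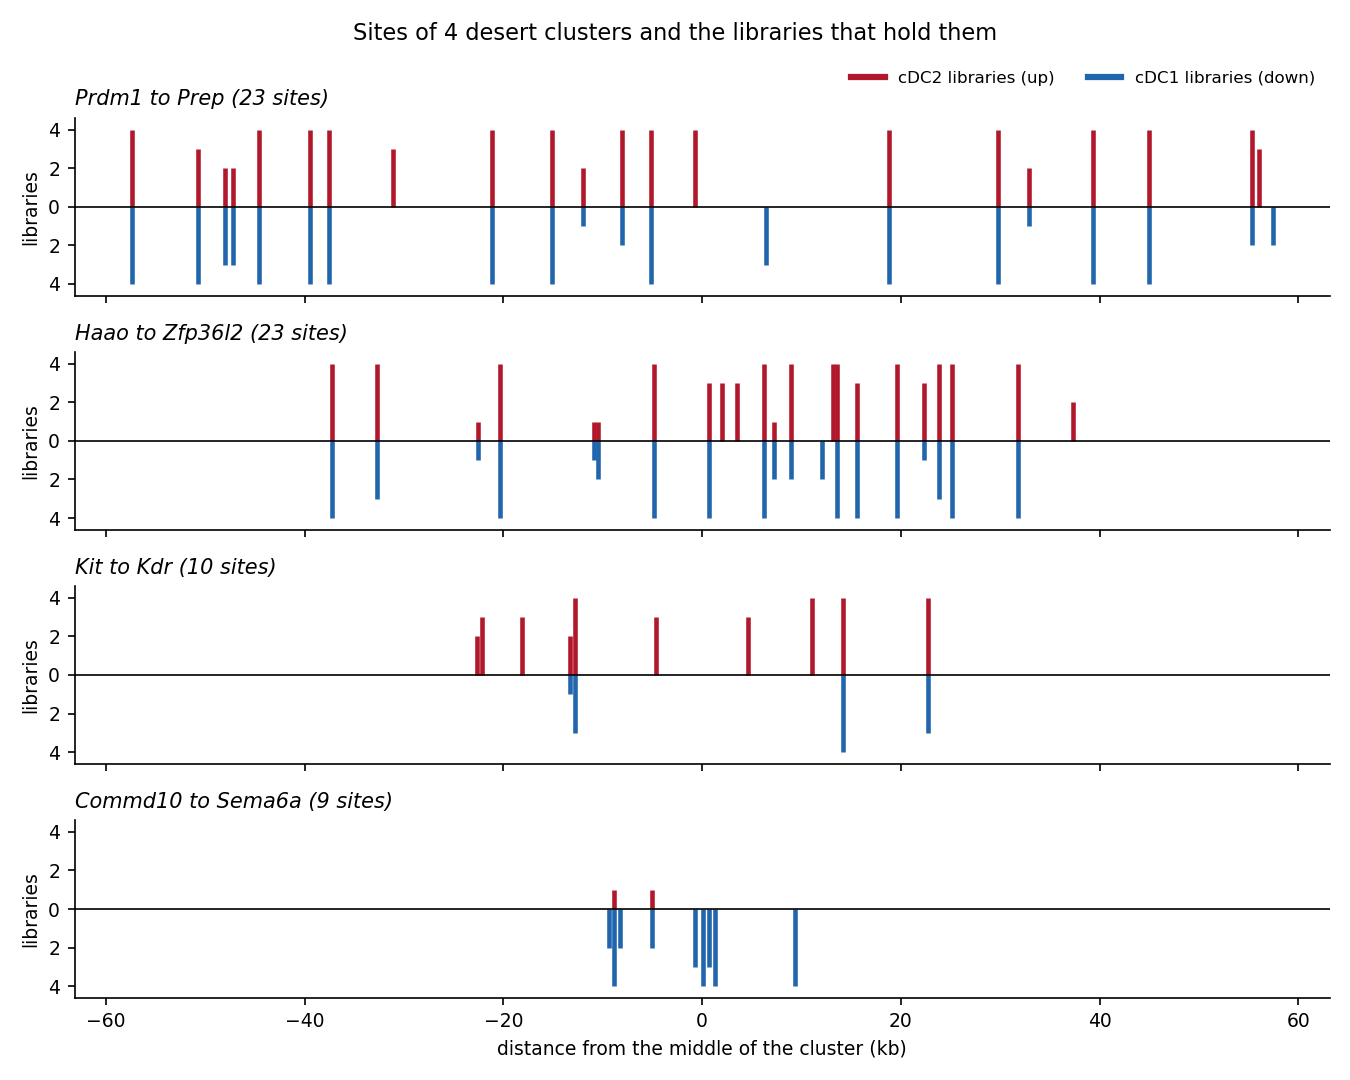
Sites of 4 desert clusters along the distance from the middle of each cluster (kb); bars point up for the number of cDC2 libraries and down for the number of cDC1 libraries that hold a site. The upper 2 clusters, with 23 sites each, hold mostly sites of both subsets, the 10 sites between Kit and Kdr are mostly cDC2 sites, and the 9 sites between Commd10 and Sema6a are mostly cDC1 sites.

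The patterns of neighbouring desert sites were counted. Of the neighbours of sites in every cDC2 and no cDC1 library, 8.74% had that pattern, beside 4.34% of all desert sites, and 3.83% the reverse one. Of the neighbours of sites in every cDC1 and no cDC2 library, 16.2% had that pattern, beside 7.98% of all desert sites, and 2.06% the reverse one. Sites in all 8 libraries made up 29.3% of the neighbours of such sites, against 29.0% of the neighbours of the cDC2 sites, 27.0% of those of the cDC1 sites and 30.5% of those of the remaining sites, so that this pattern showed no such excess. Sites in all 8 libraries had a neighbour within just over 12 kb in 77.3% of cases, against 65.9% of the cDC2 sites and 65.1% of the cDC1 sites of a single subset.

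The desert sites had 1995 of 21887 protein-coding genes (9.11%) as their nearest, with a median of 3 sites for each. The largest numbers belonged to Adgrl2 (66 sites), a neuronal adhesion receptor, Id2 (64), Cited2 (60), a transcriptional coregulator, Klf6 and Tbl1xr1 (45 each), Jarid2 and Klf4 (43 each), Marcks (42) and Btg1 (41). Tbl1xr1 is a subunit of a corepressor complex that carries a histone deacetylase, and Jarid2 is a cofactor of Polycomb repression. Nearness does not show that a site acts on the gene.

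Genes of dendritic cell development had many desert sites around them. Of 44 regulators of conventional dendritic cells 25 (56.8%) were the nearest gene of a desert site, with 463 sites and a median of 16 per gene, beside 9.11% and 3 over all genes. Of 30 cytokines and receptors 8 had 73 sites, of 22 regulators of other blood lineages 11 had 87, of 50 developmental regulators 21 had 83 and of 38 neuronal adhesion and channel genes 10 had 30. Genes with a desert site were thus 26.7%, 50%, 42% and 26.3% of these lists, so that every list lay above the 9.11% of all genes. The medians were 9, 4, 2 and 2 sites per gene. Of the sites by dendritic cell regulators 29.6% were in all 8 libraries, against 3 of the 30 by neuronal genes, beside 26.2% of all desert sites.

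By gene, the number of desert sites found was higher in every cDC2 than in every cDC1 library for 138 of 1995 genes (6.92%) and lower for 238 (11.9%). Of the 25 regulators with desert sites 1 was higher (Runx3) and 5 were lower (Bcl6, Foxo1, Id2, Irf8 and Satb1), or 4% and 20%. Genes with at least 5 desert sites, 657 in all, were higher in 9.74% and lower in 16.7% of cases. Id2, the partner-blocking helix-loop-helix protein that cDC1 require, had 39 and 34 sites in KO cDC2, 40 and 41 in WT cDC2, 48 and 43 in KO cDC1 and 51 and 54 in WT cDC1. Irf8, the defining factor of cDC1, had 2 and 1 in KO cDC2, 2 and 1 in WT cDC2, 5 and 4 in KO cDC1 and 5 and 3 in WT cDC1. Of its 5 sites 2 were in every cDC1 and no cDC2 library, chr8:120832155-120832273 and chr8:120862945-120863003, 75.5 and 106 kb away. The subsets were apart for both genes, with cDC1 above.

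Satb1, which encodes a chromatin organizer, had 9 and 10 sites in KO cDC2, 9 and 9 in WT cDC2, 18 and 16 in KO cDC1 and 17 and 16 in WT cDC1. Of its 21 sites 4 were in every cDC1 and no cDC2 library, among them chr17:51574827-51574866 at 161 kb. For Bcl6, a repressor with a known role in cDC1, the numbers were 10 and 8 in KO cDC2, 8 and 9 in WT cDC2, 14 and 13 in KO cDC1 and 15 and 13 in WT cDC1. Runx3, a Runt family factor, went the other way, with 6 and 6 in KO cDC2, 6 and 7 in WT cDC2 and 3 in each cDC1 library.

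The genes tied most closely to cDC2 did not separate the subsets by site number. Klf4 had 29 and 31 sites in KO cDC2, 34 and 33 in WT cDC2, 30 and 29 in KO cDC1 and 23 and 27 in WT cDC1. Zeb2 had 23 and 28 in KO cDC2, 29 and 27 in WT cDC2, 26 and 25 in KO cDC1 and 24 and 25 in WT cDC1. Both genes had sites of either kind: Zeb2 3 in every cDC2 and no cDC1 library, such as chr2:45236263-45236397 at 119 kb, and 2 of the reverse kind, and Klf4 3 and 1. Prdm1 had 20 and 19 sites in KO cDC2, 24 and 19 in WT cDC2, 20 and 17 in KO cDC1 and 18 and 18 in WT cDC1, also overlapping.

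Among cytokines and receptors no gene of 8 separated the subsets. Cxcr4, a chemokine receptor, had 26 desert sites, of which 21 and 22 were found in KO cDC2, 18 and 20 in WT cDC2, 20 and 21 in KO cDC1 and 18 and 23 in WT cDC1. Il12b, which encodes the p40 subunit of interleukin 12, had 6 and 8 in KO cDC2, 5 and 6 in WT cDC2, 11 and 8 in KO cDC1 and 10 and 10 in WT cDC1, touching at 8; 2 of its 12 sites were in every cDC1 and no cDC2 library. Among genes of other lineages Bcl11a, a repressor needed for B cells and plasmacytoid dendritic cells, had 17 and 19 sites in KO cDC2, 19 and 16 in WT cDC2, 20 and 24 in KO cDC1 and 20 and 20 in WT cDC1, lower in every cDC2 library. Among developmental genes Bmp2, Zfhx3 and Tfap2a were higher in every cDC2 library and Sox5 and Dach1 lower. Bmp2, a bone morphogenetic protein, had 7 and 8 sites in KO cDC2, 9 and 7 in WT cDC2, 6 and 4 in KO cDC1 and 5 and 3 in WT cDC1.

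**Figure D4:**
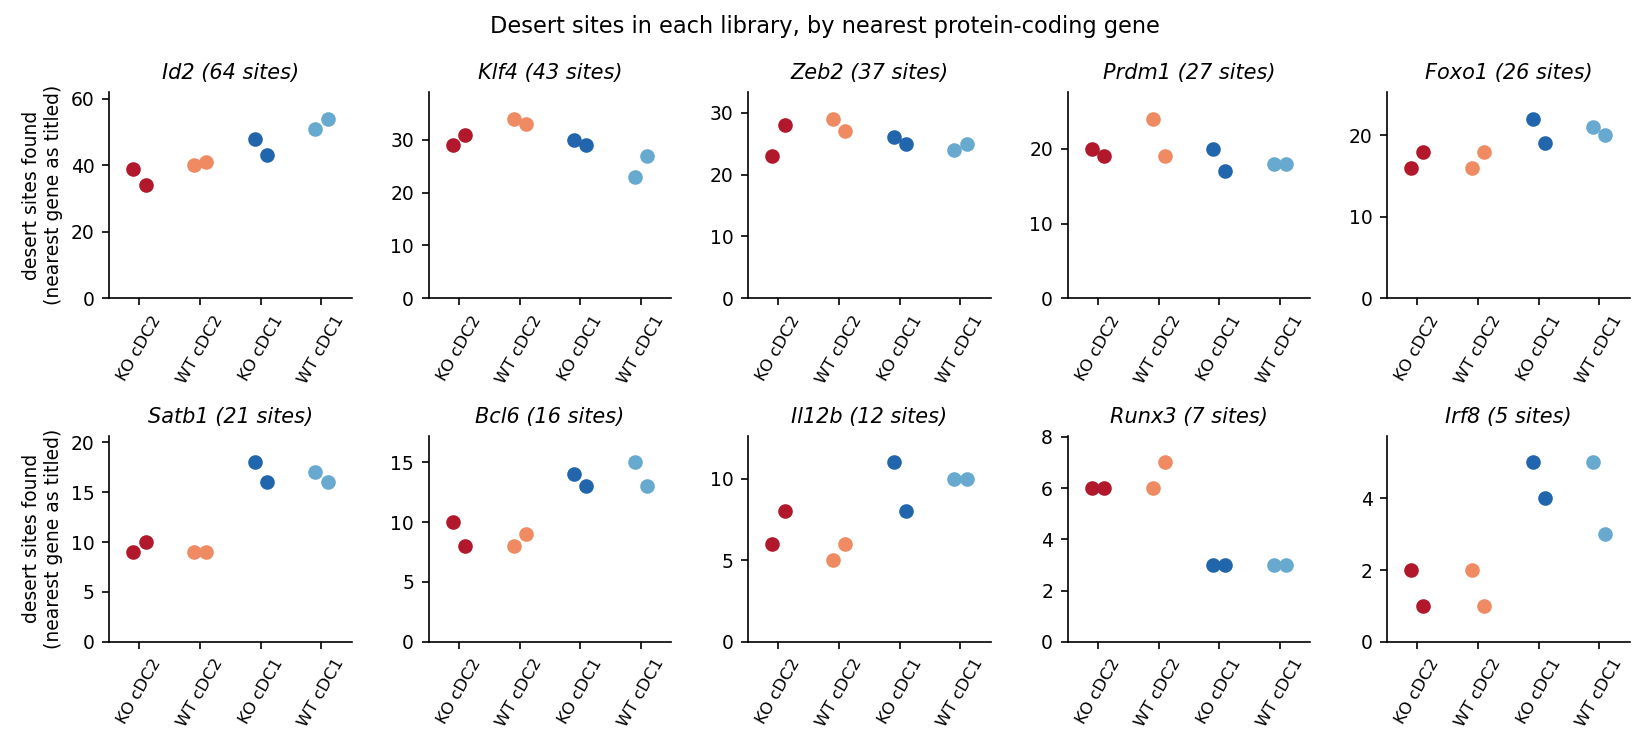
Number of desert sites found in each library (1 point each, groups KO cDC2, WT cDC2, KO cDC1 and WT cDC1 along the horizontal axis) for 10 genes that are the nearest protein-coding gene; the vertical axes start at 0. cDC1 points lie above cDC2 points for Id2, Foxo1, Satb1, Bcl6 and Irf8, below for Runx3, and overlap or touch for Klf4, Zeb2, Prdm1 and Il12b.

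The number of kept summits was then tested over whole deserts. The stretches more than 50 kb from both flanking genes numbered 3002, and 1116 had a mean of at least 1 summit. limma was fitted to log2(summits + 1) of these and of all genes, 15094 features in all, with Benjamini-Hochberg adjustment over all of them. Of the features 11.3% passed an adjusted p of 0.05 between cDC2 and cDC1, and of the deserts 22.9%. There were 104 deserts higher in cDC2 and 152 lower, beside 5.09% and 6.23% of all features. The tested deserts held more summits than other features, a median of 3.38 against 2.63 over all, and the part of this in their larger share was not tested.

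Where a subset had no summit at all, the fitted difference below is on the log2(summits + 1) scale and depends on the added 1. The desert between Dhx35, an RNA helicase gene, and Gm826 (chr2:158908221-160261392) had 6 and 5 summits in KO cDC2, 5 and 4 in WT cDC2 and none in cDC1, a difference of 2.57 ± 0.18 (SE; limma adjusted p = 1.9e-06). Between 4931429L15Rik and Gm4791, the desert with the 2900052N01Rik start printed above, there were 10 and 6 summits in KO cDC2, 8 and 12 in WT cDC2, 3 and 3 in KO cDC1 and 0 and 0 in WT cDC1 (2.28 ± 0.20, limma adjusted p = 9.2e-06). Gm40892 to Flrt2, beside a gene for a neuronal adhesion protein, had 5 and 9 in KO cDC2, 5 and 10 in WT cDC2, 1 and 2 in KO cDC1 and 0 and 2 in WT cDC1 (1.95 ± 0.31, limma adjusted p = 0.00139). The Flrt2 call was lost without the rounding variance (limma adjusted p = 0.084) and with an intensity trend (0.0815), and it was 1 of 3 so lost under some setting among the 20 deserts with the largest differences. All of the deserts named here were higher in cDC2, with no overlap of the subsets.

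Of the deserts lower in cDC2, Khdrbs3 to Fam135b had 0 and 2 summits in KO cDC2, 1 and 0 in WT cDC2, 9 and 13 in KO cDC1 and 7 and 7 in WT cDC1, a difference of -2.64 ± 0.30 (limma adjusted p = 9.7e-05). Atp10a to Ube3a, which holds the best ranked cDC1 site, had none in cDC2, 6 and 5 in KO cDC1 and 4 and 4 in WT cDC1 (-2.51 ± 0.17, limma adjusted p = 1.9e-06). Commd10 to Sema6a had 0 and 2 in KO cDC2, 0 and 1 in WT cDC2, 9 and 6 in KO cDC1 and 10 and 7 in WT cDC1 (-2.50 ± 0.31, limma adjusted p = 0.000172). Phkb to Abcc12 had 4 in each cDC1 library and none in cDC2 (-2.32 ± 0.17, limma adjusted p = 3.3e-06). Emp1 to Grin2b, beside a glutamate receptor gene, had 1 and 2 in KO cDC2, 0 and 1 in WT cDC2, 5 and 6 in KO cDC1 and 6 and 5 in WT cDC1 (-1.80 ± 0.23, limma adjusted p = 0.000227).

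**Figure D5:**
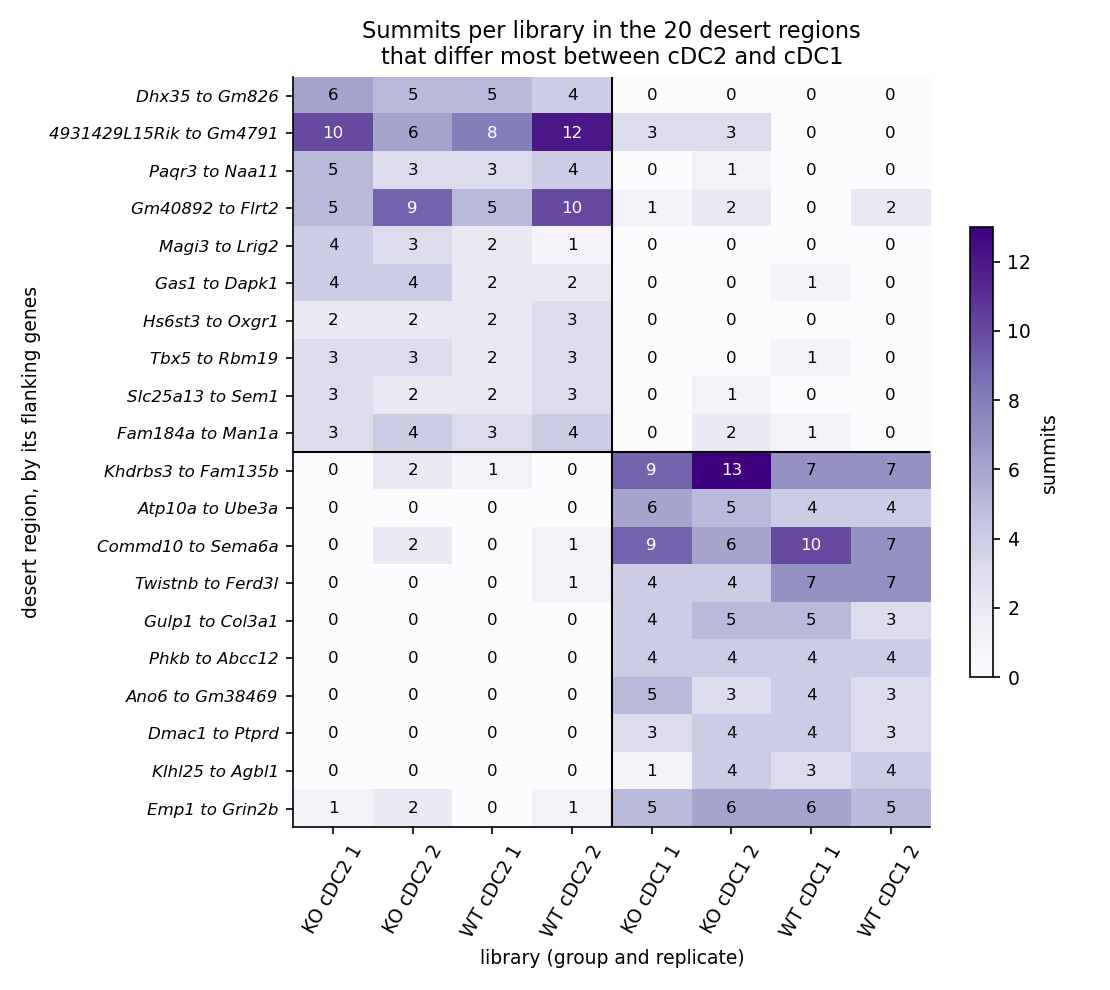
Number of kept summits in each library (columns, KO cDC2, WT cDC2, KO cDC1 and WT cDC1 with 2 replicates each) in the desert regions with the largest differences past the threshold, 10 in each direction (rows, by flanking genes). Upper rows hold summits mainly in cDC2 and lower rows mainly in cDC1, with 0 to 3 summits in the other subset.

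The deserts with most summits that are described here did not differ past the threshold in the fit as described. Id2 to Rnf144a had 47 and 39 summits in KO cDC2, 45 and 49 in WT cDC2, 57 and 53 in KO cDC1 and 58 and 67 in WT cDC1; the subsets did not overlap, and the difference was -0.38 ± 0.17 (limma adjusted p = 0.183). Zeb2 to Acvr2a had 46 and 60 in KO cDC2, 51 and 56 in WT cDC2, 44 and 44 in KO cDC1 and 44 and 43 in WT cDC1 (0.27 ± 0.17, limma adjusted p = 0.379). Bcl11a to Fancl had 32 and 33 in KO cDC2, 31 and 33 in WT cDC2, 40 and 44 in KO cDC1 and 44 and 42 in WT cDC1 (-0.39 ± 0.17, limma adjusted p = 0.164). The subsets did not overlap in Zeb2 to Acvr2a, with cDC2 above, or in Bcl11a to Fancl, with cDC1 above. The Bcl11a result turns on the variance treatment: the limma adjusted p was 0.0100 without the rounding variance and 0.0106 with an intensity trend, at the same difference. Another 6, flanked by Cited2, Btg1, Jarid2, Klf4, Tbl1xr1 and Myc, had differences between -0.070 and 0.23.

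Of 32 tested deserts beside dendritic cell regulators 1 was higher and 4 were lower in cDC2, which is 15.6% called, beside 22.9% of all tested deserts. Syf2 to Runx3 had 7 and 8 summits in KO cDC2, 10 and 10 in WT cDC2, 5 and 4 in KO cDC1 and 5 and 5 in WT cDC1 (0.75 ± 0.17, limma adjusted p = 0.0117). Irf8 to Foxf1 had 3 and 4 in KO cDC2, 3 and 1 in WT cDC2, 6 and 6 in KO cDC1 and 6 and 4 in WT cDC1 (-0.86 ± 0.23, limma adjusted p = 0.0255). Satb1 to Kcnh8 had 6 and 8 in KO cDC2, 8 and 7 in WT cDC2, 14 and 14 in KO cDC1 and 12 and 11 in WT cDC1 (-0.74 ± 0.17, limma adjusted p = 0.0147). A1bg to Myc, beside the growth regulator Myc, had 7 and 5 in KO cDC2, 5 and 7 in WT cDC2, 11 and 13 in KO cDC1 and 9 and 11 in WT cDC1 (-0.78 ± 0.19, limma adjusted p = 0.0157), and Rad23b to Klf4 had 0 to 1 in cDC2 and 1 to 3 in cDC1 (-1.04 ± 0.29, limma adjusted p = 0.0315). Each of these 5 calls was lost under at least 1 other setting, among them that for Runx3 with lists of 0.5 times the length (0.43, limma adjusted p = 0.14), that for Satb1 without KO cDC2 replicate 1 (-0.65, limma adjusted p = 0.053) and that for Irf8 without WT cDC2 replicate 2 (-0.61, limma adjusted p = 0.0675).

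Other lists moved in both directions. Called deserts made up 30% of those beside cytokine and receptor genes and 28.1% of those beside developmental regulators. They made up 36.4% beside neuronal genes and 8.33% beside regulators of other lineages, against 22.9% of all tested deserts. Of 10 deserts beside cytokine and receptor genes 2 were higher and 1 was lower in cDC2. Kit to Kdr had 18 and 14 summits in KO cDC2, 16 and 18 in WT cDC2, 9 and 11 in KO cDC1 and 8 and 10 in WT cDC1 (0.74 ± 0.18, limma adjusted p = 0.0168). With all deposited summits its difference was 0.35 (limma adjusted p = 0.358), and without KO cDC2 replicate 1 it was 0.65 (limma adjusted p = 0.0544). Inpp4b to Il15, beside the interleukin 15 gene, had 0 to 1 in cDC2 and 2 to 3 in cDC1 (-0.94 ± 0.23, limma adjusted p = 0.0157). This call was lost without the rounding variance, with an intensity trend and without the filter (limma adjusted p = 0.107, 0.102 and 0.0535). Of 32 beside developmental regulators 5 were higher and 4 lower; Fermt1 to Bmp2 had 10 and 14 in KO cDC2, 14 and 10 in WT cDC2, 7 and 6 in KO cDC1 and 6 and 4 in WT cDC1 (0.95 ± 0.20, limma adjusted p = 0.00669). The Bmp2 call was lost without the rounding variance, with an intensity trend and with all deposited summits (limma adjusted p = 0.0562, 0.0538 and 0.0571), and 8 of the 9 calls of this list were lost under at least 1 setting. Of 22 beside neuronal genes 5 were higher and 3 lower, of which 6 calls were lost under at least 1 setting. Among those kept under every setting that could be fitted was Crbn to Lrrn1, with none in cDC2 and 2 in each cDC1 library (-1.58 ± 0.18, limma adjusted p = 0.000117). Of 12 beside regulators of other lineages only Maf to Dynlrb2 passed, with 8 and 10 in KO cDC2, 5 and 8 in WT cDC2, 15 and 17 in KO cDC1 and 17 and 18 in WT cDC1 (-1.05 ± 0.19, limma adjusted p = 0.00257).

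Few desert sites split the libraries by genotype. In every KO and no WT library there were 14 desert sites (0.146%, beside 0.11% of all sites), and in every WT and no KO library 11 (0.115%, beside 0.0917%). In the full deposited lists 6 of the 14 had a WT summit and all of the 11 had a KO summit. The full lists held 69025 to 96031 summits in KO and 61737 to 77585 in WT libraries. A KO summit thus had more chance to be found, and these counts do not compare the genotypes. Within cDC2, 317 sites (3.30%, beside 3.07%) were in both KO and no WT libraries and 274 (2.86%, beside 2.54%) in both WT and no KO libraries. Within cDC1 the numbers were 306 (3.19%, beside 2.86%) and 296 (3.08%, beside 3.01%). These shares lie near those of all sites. The T cell marker sums, which also differed by genotype, were given above, and their part was not tested.

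The KO sites were of middling rank. The first, chr1:7894887-7894963, 465 kb from Sntg1, ranked 48960 and 28203 in KO cDC2 and 43819 and 25527 in KO cDC1, with no WT summit even in the full lists. Another, chr6:143465245-143465331, 257 kb from Etnk1 and inside the annotated noncoding gene Gm23272, ranked 45018 and 32050 in KO cDC2 and 54145 and 33853 in KO cDC1. The first of the WT sites, chr13:6030359-6030476, 160 kb from Klf6, ranked 29574 and 30038 in WT cDC2 and 34257 and 48221 in WT cDC1.

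By nearest gene, site numbers were higher in every KO than in every WT library for 8 of 1995 genes (0.401%) and lower for 3 (0.15%). In limma, 1 desert of the 1116 passed between KO and WT, beside 0.00663% of all features, and 101 (9.05%) had an unadjusted p under 0.05, beside 6.24% of all features. It lay between Slc25a33, a mitochondrial nucleotide carrier gene, and Spsb1 (chr4:149824268-149846282), with 2 and 3 summits in KO cDC2, 0 and 0 in WT cDC2, 2 and 1 in KO cDC1 and 0 and 0 in WT cDC1 (1.54 ± 0.20, limma adjusted p = 0.0293). The call did not hold with a pseudocount of 0.5 or without the filter, and the number of deserts called was between 0 and 27 over the settings tried.

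Within cDC2, 2 deserts passed, beside 0.0729% of all features, both higher in KO, beside 0.0663%: Slc25a33 to Spsb1 and Irx6 to Mmp2. In Irx6 to Mmp2 there were 2 and 2 summits in KO cDC2, 0 and 0 in WT cDC2, 2 and 2 in KO cDC1 and 3 and 3 in WT cDC1 (1.58 ± 0.25, limma adjusted p = 0.0291). Within cDC1, 1 passed, beside 0.0464% of all features, and was higher in KO, beside 0.0398%: 4931429L15Rik to Gm4791, with 3 and 3 in KO and 0 and 0 in WT (2.00 ± 0.28, limma adjusted p = 0.0303). The difference between the subsets in the KO effect passed for 0 deserts and 0 features, with 55 deserts (4.93%) at an unadjusted limma p under 0.05, beside 3.78% of all features. No desert beside a gene of the 5 lists passed between KO and WT over both subsets.

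Many desert sites lay inside noncoding genes. Of them 2406 (25.1%) were inside one, against 4677 (16.8%) of other sites outside protein-coding genes, and 2193 (22.9%, against 15.3%) were inside a long noncoding RNA gene. Within 10 kb of a noncoding gene the shares were 44.6% and 44.3%. Counted by locus, and overlapping the counts above, 106 desert sites lay in antigen receptor loci, whose segments are not annotated as protein-coding genes: 46 in Igh, 18 in Tcrb, 17 in Tcra and Tcrd, 15 in Igk, 7 in Igl and 3 in Tcrg. The Igh sites were found 22 and 31 times in KO cDC2, 25 and 27 in WT cDC2, 25 and 29 in KO cDC1 and 26 and 32 in WT cDC1, overlapping ranges in all groups.

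The promoter windows could be searched for letters of factors active in dendritic cells. Among 3377 windows of long noncoding RNAs that lie in deserts, 176 held a summit of a desert site and 3201 did not. Windows with a summit had a median of 50.7% G and C and 6 CpG dinucleotides, those without 45.3% and 3, and all 32817 windows 52.7% and 7. The letters GAGGAAGT, of the ETS family to which PU.1 belongs, were in 13.1% of windows with a summit, 3.28% of those without and 3.20% of all, on either strand. The letters TGANTCA of AP-1 were in 22 of the 176 windows with a summit, 11.1% of those without and 7.81% of all. A pair of GAAA with 2 bases between, of interferon regulatory factors, was in 5.68%, 4.19% and 3.43%, and GGAA followed after 2 bases by GAAA, of an ETS and interferon regulatory factor composite, in 8.52%, 3.12% and 2.72%. The letters of ETS, of interferon regulatory factors and of their composite can overlap, and a match is no sign of binding. The 4 windows printed above hold none of these letters.

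To show such a match, the window of Dleu2 (chr14:61682324-61682623, minus strand), a host gene of microRNAs whose site was held by all 8 libraries, is given with its ETS letters in capitals, which read GAGGAAGT on the opposite strand from position 291.
Dleu2: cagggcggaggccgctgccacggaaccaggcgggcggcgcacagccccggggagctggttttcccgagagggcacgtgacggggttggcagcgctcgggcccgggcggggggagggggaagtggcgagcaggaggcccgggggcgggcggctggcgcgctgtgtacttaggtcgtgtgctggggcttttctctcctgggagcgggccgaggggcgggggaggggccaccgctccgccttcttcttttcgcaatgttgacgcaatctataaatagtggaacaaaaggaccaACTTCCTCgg

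The Dleu2 site, 69.6 kb from Kcnrg, ranked 12558 and 13333 in KO cDC2, 10694 and 12110 in WT cDC2, 9812 and 12723 in KO cDC1 and 7659 and 9862 in WT cDC1. Its summits lay at positions 98 to 268, before the letters. The window has 29 CpG dinucleotides, close to the 27 of 1700064M15Rik. Of the 176 windows with a summit 75 had a site of all 8 libraries as their best, 5 one of every cDC2 and no cDC1 library and 4 the reverse.

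MicroRNA genes also lie in deserts. Of 153 hairpins in deserts 36 had a desert site within 10 kb, and 3 pairs of neighbouring genes among them share a seed (bases 2 to 8 of the mature RNA, in capitals), which sets the targets a microRNA can pair with. They are printed with miR-101a, whose nearest desert site was the only one of the 36 in every library of a single subset. The sequences are RefSeq's mature RNAs of GRCm38.p6.
mmu-miR-181a-5p: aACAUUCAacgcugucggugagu
mmu-miR-181b-5p: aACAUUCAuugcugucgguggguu
mmu-miR-29a-3p: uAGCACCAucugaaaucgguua
mmu-miR-29b-3p: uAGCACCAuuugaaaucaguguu
mmu-miR-221-3p: aGCUACAUugucugcuggguuuc
mmu-miR-222-3p: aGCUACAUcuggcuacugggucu
mmu-miR-101a-3p: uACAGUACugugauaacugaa

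The miR-181 pair, 96.4 and 96.2 kb from Ptprc, the gene of the leukocyte antigen CD45, had its nearest desert site 4933 and 4756 bp away, in 3 cDC2 and 2 cDC1 libraries. For miR-29a and miR-29b, 104 kb from Klf14, the site lay 9516 and 9170 bp away, and for miR-221 and miR-222 on the X chromosome 7452 and 6869 bp away, each in 2 cDC2 libraries and 1 cDC1 library. Mir101a, 69.5 kb from Ak4, had 6 desert sites within 10 kb, the nearest 1431 bp away in every cDC1 and no cDC2 library with a mean rank of 37421. The best of these 6 had a mean rank of 22594. The nearest sites of the 7 microRNAs had mean ranks from 37421 to 49739, and whether they bear on the microRNAs cannot be read from accessibility.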

How the data were processed

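ATAC-seq summit lists of 8 libraries (4 groups of 2) were used as deposited. Per the submitters' processing notes, MACS2, Bowtie2, SAMtools and MultiQC were run by the authors, on GRCm38/mm10; versions and settings are not given in the sources used here. The deposited score of each summit is a −log10 p or q of its peak (which of these is not stated), lowest at 1.30 to 1.36 in each file, and was used only as a rank within a list. In each list the 61737 best summits were kept, and equal scores at the end of the list, which 6 libraries had, were broken by file order. Summits were chained within 250 bp, and distances were taken from site midpoints to the spans of 21887 protein-coding genes in the RefSeq table. No site here has a read count, so precision rests on the number of libraries.

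Shares were compared by exact permutation over the 70 splits of 4 against 4, and ranks of site classes by exact sign-flips over libraries. The same test of sharing is not given, since a site of all 8 libraries counts in each of them. Summits per desert and per gene were fitted with limma 3.58.1 (R 4.3.3; Python 3.11.15 for the rest) on log2(summits + 1) for features with a mean of at least 1 summit, after adding the rounding variance of whole numbers, 0.0833 squared summits, to each residual variance. The 4 groups shared 1 estimate of the spread, and p-values were adjusted over all features at a threshold of 0.05. On simulated data of 15218 features for cDC2 minus cDC1 the fit recovered 31 of 100 features changed 2-fold and 98 of 100 changed 4-fold, and called 11 unchanged ones. Replicate numbers of the labels were not used to pair the libraries in the main tests. Deviations of libraries with the same number correlated by -0.001 to 0.034 over 15094 features, which does not show whether the numbers mark pairs. The share of the list in desert sites was higher in replicate 2 than in replicate 1 in each of the 4 groups.

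Named sites, clusters and deserts were the best ranked or farthest sites, the clusters with most sites, and the deserts with most summits or the largest change each way past the threshold. Named genes flank these or belong to the lists. Of the 10 deserts with most summits, 1 is not reported here. The members, the lists of genes and the variance treatment were chosen with earlier results of these data known. Alternatives changed the list length, chaining distance, number of libraries, gene distance, gene classes, pseudocount, filter, variance treatment, the replicate block and single libraries. A search of the sites' own sequence for letters, planned for a genome of the build, was not run. RefSeq promoter windows and mature microRNAs of GRCm38.p6 were used instead.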

Additional observations from a re-analysis of the deposited data

Results flagged for a closer look

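Of 172 groups of 4 libraries examined, 19 held a library far from the other 3, where chance alone flags about 1 in 20 groups. In many the counts are small whole numbers, for which a single summit is enough. In the deserts Paqr3 to Naa11 and Slc25a13 to Sem1, KO cDC1 replicate 2 had 1 summit and the other cDC1 libraries 0. In Gas1 to Dapk1 and in Tbx5 to Rbm19, WT cDC1 replicate 1 had 1 and the other cDC1 libraries 0. In Tbx5 to Rbm19, WT cDC2 replicate 1 had 2 and the other cDC2 libraries 3. In Hs6st3 to Oxgr1, WT cDC2 replicate 2 had 3 and the others 2, and in Twistnb to Ferd3l it had 1 and the others 0.

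Among deserts with many summits, Nmbr to Cited2 had 45 in KO cDC2 replicate 1 and 50 to 51 in the other cDC2 libraries. Zeb2 to Acvr2a had 60 in KO cDC2 replicate 2 and 44 to 46 in the other KO libraries, and 43 in WT cDC1 replicate 2 and 44 in the other cDC1 libraries. Cd83 to Jarid2 had 38 in WT cDC1 replicate 2 and 41 in the other cDC1 libraries, and Agtr1b to Tbl1xr1 had 34 in KO cDC1 replicate 1 and 40 to 41 in the other KO libraries.

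Among the largest clusters, the one between Haao and Zfp36l2 had 15 sites in KO cDC2 replicate 2 and 18 in the other cDC2 libraries, and 15 in WT cDC1 replicate 2 and 14 in the other cDC1 libraries. The Id2 to Rnf144a cluster had 13 in WT cDC2 replicate 2 and 15 in the other cDC2 libraries. The Irf2bp2 to Tomm20 cluster had 14 in WT cDC1 replicate 1 and 15 in the other WT libraries. The Cd83 to Jarid2 cluster had 14 in KO cDC1 replicate 1 and 12 in the other cDC1 libraries, and 14 in WT cDC2 replicate 1 and 12 in the other WT libraries. The Zfp236 to Zfp516 cluster had 12 in WT cDC1 replicate 1 and 11 in the other WT libraries.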

How the results depend on the processing

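Desert sites ranked deeper than other sites outside genes under every alternative tried, at the smallest sign-flip p, and were shared less under each. Counts of sites moved with the list and the distance, by construction. With lists of 0.5 times the length there were 4279 desert sites, 252 of every cDC2 and no cDC1 library, 396 of the reverse, 5 of every KO and no WT library, 219 beside dendritic cell regulators, 51.4% with a neighbour and 26.6% inside noncoding genes. With all deposited summits the cDC2 sites numbered 277, the KO sites 35 and the WT sites 2, and 74.6% had a neighbour. Full lists differ in length by subset and genotype, so these site numbers do not compare the groups. Chaining within 100 or 500 bp gave 70.8% or 67.2% with a neighbour, and at least 1 or 3 libraries gave 75.6% or 65.7%. Beyond 25 kb there were 14963 sites, 639 of them cDC2 sites, and 72.3% with a neighbour. Beyond 100 kb there were 5367 sites, 243 cDC2, 472 cDC1, 6 KO and 6 WT sites, and 66.3% with a neighbour. With distance to every gene, noncoding ones included, there were 2129 sites, 111 cDC2, 199 cDC1, 2 KO and 2 WT sites, 114 beside the regulators and 62.4% with a neighbour. Without 1 library, KO sites numbered 19 to 35 and WT sites 17 to 29, cDC2 sites 458 to 540 and cDC1 sites 808 to 911, and 68.5% to 69.3% had a neighbour.

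The share of the list in desert sites, KO minus WT, was -0.193 with the shorter lists, -0.0636 with all, -0.00729 with at least 1 library, -0.00121 beyond 100 kb, and -0.0799 to 0.134 without 1 library. The number of deserts passing limma between KO and WT was 27 without the rounding variance, 27 with an intensity trend, 0 with a pseudocount of 0.5, 0 without the filter, 0 with a mean of at least 2, 20 with the shorter lists, 8 with all, 10 with the replicate block and 1 to 13 without 1 library. Between cDC2 and cDC1 it was 175 to 316, the highest with the block. With the block the share of cDC2 minus cDC1 was -0.447 with p = 0.125 by exact sign-flips over the pairs, the smallest that so few pairs can give.

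Differences of cDC2 minus cDC1 that changed sign were all outside the threshold. With all summits Eea1 to Btg1 was -0.057, Cd83 to Jarid2 -0.36, Klf4 to Actl7b -0.033, Agtr1b to Tbl1xr1 -0.13 and Myc to Gsdmc -0.11. With the shorter lists Agtr1b to Tbl1xr1 was -0.057. Without 1 library Cd83 to Jarid2 was between -0.041 and 0.116 and Myc to Gsdmc between -0.040 and 0.167. The cause was not tested. The sequence search of the sites was not run. Without read counts, a site missed for depth and a closed one look alike.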
